A study of Homo sapiens with 12 samples.

Results

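The 10 genes described here encode secreted signalling proteins, and their mRNA was measured in MDA-MB-231 breast cancer cells after knockdown of NELFA, YAP or both. The genes are the chemokines CCL20, CXCL1, CXCL2, CXCL3 and CXCL8, the cytokines IL1A and IL1B, and the cytokines IL6, LIF and IL11. They were taken by gene symbol and were 10 of 58051 genes listed, of which 34866 had at least 1 count in the 12 libraries. The set was chosen by gene symbol after an earlier pass over these counts, in which CCL20 was selected on its rise in siNELFA+siYAP against siControl, so that comparison is given only as a description. MDA-MB-231 is an established mesenchymal triple-negative breast cancer line, and every library came from this line.

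The 4 groups held 3 RNA-seq libraries each. siControl cells received a non-targeting siRNA pool, siNELFA cells a pool against NELFA, siYAP cells a pool against YAP1, and siNELFA+siYAP cells both pools. The study's methods give a siRNA concentration of 50 to 100 nM and no dose for each group. A difference in dose between groups therefore cannot be told apart from knockdown. The labels name RNA from 48 and 72 h after transfection without saying which library is which, and the study's methods give 72 h. No untransfected cells were analysed here, and each target was reached with 1 pool, so pool-specific effects cannot be told apart from loss of the target. The 3 siNELFA+siYAP libraries carry names of a single numbered experiment, while their titles give replicates 1 to 3, so their spread may be technical. Any difference between experiments therefore cannot be told apart from knockdown in comparisons with this group.

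Chemokines are small secreted proteins that draw leukocytes along a gradient. CCL20 acts through the receptor CCR6 on dendritic cells and lymphocytes. CXCL8 acts through CXCR1 and CXCR2, and CXCL1, CXCL2 and CXCL3 mainly through CXCR2, and these CXCL chemokines attract neutrophils. IL1A and IL1B are the agonists of the IL-1 receptor, a strong activator of the transcription factor NF-kB, which in turn drives many chemokine genes. IL6, LIF and IL11 signal through the shared receptor chain gp130 and the transcription factor STAT3. The messages of several of these genes carry AU-rich elements that shorten their life. NELF, of which NELFA is a subunit, holds RNA polymerase II in the paused state shortly after initiation. YAP is the coactivator of the Hippo pathway and reaches DNA through TEAD factors. In mesenchymal breast cancer lines, CXCL8 and IL6 are known as abundant secreted products.

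The CXCL genes are neighbours on chromosome 4 of GRCh38 (GENCODE release 44), where CXCL8 (chr4:73740519-73743716, plus strand), CXCL1 (chr4:73869393-73871308, plus), CXCL3 (chr4:74036589-74038807, minus) and CXCL2 (chr4:74097040-74099196, minus) lie within 359 kb. IL1A (chr2:112773925-112784493, minus) and IL1B (chr2:112829751-112836816, minus) are neighbours on chromosome 2. CCL20 (chr2:227805739-227817564, plus) lies elsewhere on that chromosome. IL6 (chr7:22725884-22732002, plus), IL11 (chr19:55364382-55370463, minus) and LIF (chr22:30240453-30246759, minus) stand on chromosomes of their own within the set.

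The 150 bases before the RefSeq start (GRCh38.p14) are printed for the 5 members that hold the NF-kB consensus within 250 bases and for CXCL8, the most changed member that does not. Capitals mark the NF-kB consensus match, in CCL20 also the TEAD motif on the opposite strand, and in CXCL8 the AP-1 motif. The windows are chr2:227813692-227813841 for CCL20, chr4:73869243-73869392 for CXCL1, chr4:74099196-74099345 for CXCL2, chr4:74038690-74038839 for CXCL3, chr7:22727050-22727199 for IL6 and chr4:73740419-73740568 for CXCL8, each written 5′ to 3′ on the strand of its gene. A RefSeq start need not be the first base of the range given above, which spans all transcripts of a gene.
CCL20: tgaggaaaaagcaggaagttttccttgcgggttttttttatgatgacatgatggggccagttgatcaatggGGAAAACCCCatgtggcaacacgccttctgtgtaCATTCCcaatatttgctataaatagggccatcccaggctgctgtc
CXCL1: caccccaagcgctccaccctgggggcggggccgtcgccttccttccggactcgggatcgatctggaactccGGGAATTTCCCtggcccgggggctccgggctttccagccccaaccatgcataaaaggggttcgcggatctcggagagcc
CXCL2: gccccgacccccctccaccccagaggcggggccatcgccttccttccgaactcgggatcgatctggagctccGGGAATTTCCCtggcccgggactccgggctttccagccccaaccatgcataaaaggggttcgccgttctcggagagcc
CXCL3: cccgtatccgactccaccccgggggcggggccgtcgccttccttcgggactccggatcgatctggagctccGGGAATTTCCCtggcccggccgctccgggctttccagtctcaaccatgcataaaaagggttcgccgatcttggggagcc
IL6: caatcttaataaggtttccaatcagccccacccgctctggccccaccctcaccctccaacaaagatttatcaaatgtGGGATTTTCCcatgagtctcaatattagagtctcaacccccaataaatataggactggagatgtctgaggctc
CXCL8: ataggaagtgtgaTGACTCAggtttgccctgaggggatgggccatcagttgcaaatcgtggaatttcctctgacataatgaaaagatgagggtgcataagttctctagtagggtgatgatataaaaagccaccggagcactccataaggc

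In CXCL1, CXCL2 and CXCL3 the match is the same 11 letters and starts 79, 78 and 79 bases before the start, and in CCL20 it starts 79 bases before it. The NF-kB consensus, searched by name on both strands with overlapping matches allowed, was found in 5 of the 9 members with a RefSeq entry and in 5.21% of 35116 promoters. The TEAD motif GGAATG was found in CCL20 alone among the members, 45 bases before the start as CATTCC, and in 11.9% of all promoters. The AP-1 motif TGANTCA was found in CXCL8, IL1A and IL11 and in 6.57% of promoters. The C/EBP motif TTGCNNAA was found in CXCL2, IL6 and IL1B and in 9.05% of promoters, and TATAAA in CCL20, CXCL8 and IL1A and in 10.7%. CXCL8 holds no full match to the NF-kB consensus in the window searched, which says nothing of the factor. A match is a string of letters here, not a measured site.

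The other sequence that the members share lies after the stop codon. The 3′ UTR of the canonical transcript held 3 to 10 copies of ATTTA per member, against a median of 2 over 19536 genes, and 2.19 (LIF) to 14.1 (IL6) copies per kb against a median of 1.5. IL6 had 6 copies in 425 bases, a density that 0.537% of genes reached, and CXCL2 had 10 in 716 bases, reached by 0.563%. CXCL3 reached 10.4 copies per kb, CXCL1 7.77 and CCL20 6.34. LIF was the exception among the 10, since 38.6% of genes were at or above its density. The AU-rich nonamer, a longer form of the same element, occurred in 7 of the 10 members and in 8.43% of genes. CCL20, IL6 and IL1A had none. It is in capitals in these 30-base stretches. CXCL1 and CXCL2 share the letters before it as well as the element, and IL1B ends in the same letters as CXCL1. IL11, which fell in the paired comparison of siNELFA with siControl where CXCL1 rose, carries it too. The part of the element in these changes was not tested.
CXCL1: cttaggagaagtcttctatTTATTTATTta
CXCL2: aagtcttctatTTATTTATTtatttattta
IL1B: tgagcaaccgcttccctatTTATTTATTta
IL11: ttccaaagccagatcTTATTTATTtattta

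Each library held 9608145 to 18803104 counts. NELFA stood at 7.11 to 9.96 CPM (counts scaled to library size by TMM) in the siNELFA libraries and at 25.3 to 27.9 in siControl, a log2 fold change of -1.63 ± 0.21 (SE; edgeR adjusted p = 0.381, and 0.000385 when paired by number). YAP1 fell to 37.7 to 46.2 CPM in the siYAP libraries from 247 to 302 (-2.67 ± 0.19, edgeR adjusted p = 0.0162). In the siNELFA+siYAP libraries NELFA stood at 6.35 to 8.20 and YAP1 at 40.1 to 44.1 CPM. VIM and CD44 were present throughout, while ESR1 had at most 6 counts and PGR at most 4. ERBB2 was not near 0, at 422 to 1474 counts per library and a mean of 67.5 CPM in siControl.

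The replicate 1 libraries of siControl, siNELFA and siYAP stood apart from the rest. CDH1 (E-cadherin) was at 16.3 to 47.0 CPM in these 3 libraries and at 0 to 0.936 CPM in the other 9, EPCAM at 15.4 to 18.3 against 4.66 to 9.56, and the monocyte gene CD14 at 11.3 to 34.4 against 2.10 to 6.61. CSF1R, another gene of the monocyte lineage, went the other way, at 2.82 to 6.06 CPM against 5.63 to 15.8. The leukocyte marker PTPRC had at most 4 counts in any library, and CD3E was at 0 in all 12. Summed over the 9 leukocyte and endothelial markers, the level was 15.5 to 25.7 CPM in siControl, 11.5 to 43.7 after siNELFA, 18.4 to 26.9 after siYAP and 16.4 to 20.9 where both were lowered. The biological coefficient of variation was 0.351 to 0.365 over 3 libraries in siControl, siNELFA and siYAP and 0.125 to 0.155 over replicates 2 and 3, against 0.0615 in siNELFA+siYAP. Because same-numbered libraries of siControl, siNELFA and siYAP deviated together, comparisons among these groups are given first unpaired and then with same-numbered libraries paired (the replicate block). The replicate 1 libraries alone can give this for all numbers, since deviations within a group cancel out. Whether replicate 2 pairs with replicate 2 and 3 with 3 was not tested, and the calls with the block rest on it. In bulk RNA, a change in how many cells express a gene and in how much RNA each holds cannot be told apart.

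Levels of the 10 genes are compared with each other only per length, as TPM, the length-scaled values of the deposited table. In siControl, IL6 was the highest at a mean of 243 TPM, followed by CXCL8 at 111, CXCL1 at 77.2, IL1B at 66.3 and IL1A at 40.0. CXCL2 at 29.1, LIF at 27.8, IL11 at 17.9, CXCL3 at 10.2 and CCL20 at 7.03 TPM formed the lower part of the order. Of the 9 neighbouring steps in this order, the ranges of the 3 libraries overlapped in 7, and only the steps from IL1B to IL1A and from CXCL3 to CCL20 were clear of overlap.

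IL6, CXCL8, CXCL1 and IL1B kept the top 4 places of the mean TPM in every group, and CCL20 changed place most. CCL20 was last in siControl and in siYAP (5.55 TPM), stood above CXCL3 and IL11 in siNELFA (17.5 TPM), and stood seventh in siNELFA+siYAP (39.4 TPM), next to LIF at 41.2. The siNELFA+siYAP libraries are those by which CCL20 was selected, so its change of place is only a description. Over the other groups, CCL20 and IL11 both moved between places 8 and 10. IL11 was last in siNELFA, at 6.64 TPM. All 9 neighbouring steps overlapped in siYAP, 7 of 9 in siNELFA and 2 of 9 in siNELFA+siYAP.

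**Figure D1:**
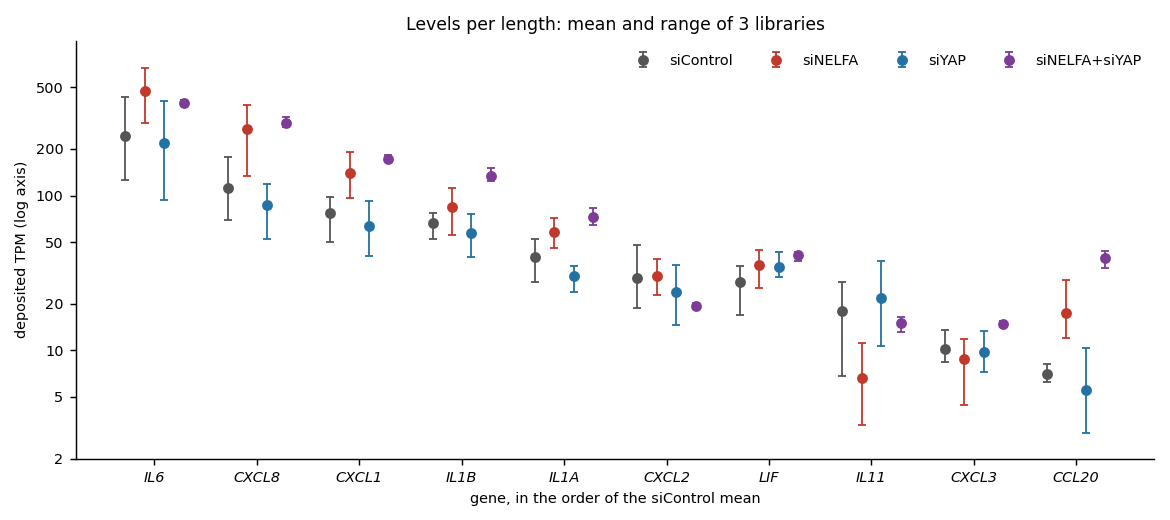
Deposited TPM of the 10 genes in each siRNA group on a log axis, with the mean as the point and the lowest and highest of 3 libraries as the bar, in the order of the siControl mean. IL6 is highest in every group, and CCL20 moves from 7.03 TPM in siControl to 39.4 in siNELFA+siYAP, the comparison by which it was selected.

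Loss of NELFA alone was set against siControl to see what the pausing factor does to these genes where YAP is intact. In the comparison of the 6 libraries without pairing, none of the 10 genes passed an adjusted p of 0.05 in edgeR's quasi-likelihood test (0.00564% of all genes did), and 4 were higher at an unadjusted p under 0.05, against 2.25% of all genes. DESeq2 also called none after adjustment (0.152% of all genes) and 6 before it (5.07%). With the libraries paired by number, 6 passed, against 5.21% of all genes: CCL20, CXCL1, CXCL8, IL6 and IL1A rose (2.76% of all genes rose) and IL11 fell (2.45% fell). The median log2 fold change of the 10 genes was 0.65 with the block, against 0.01 over all genes. The siControl libraries are also those against which CCL20 was first named, so these values are not independent of that choice.

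CCL20 was at 3.47, 3.08 and 4.76 CPM in siControl replicates 1 to 3 and at 7.92, 7.21 and 17.7 in siNELFA, from 32 to 92 counts and 101 to 311 counts per library. Every siNELFA library lay above every siControl library, as for CXCL1 and IL1A among the members, where 6.24% of all genes did. The log2 fold change was 1.54 ± 0.42 without the block and 1.48 ± 0.23 with it (edgeR adjusted p = 0.00404 with the block).

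Among the neutrophil chemokines, CXCL8 was at 210, 79.7 and 110 CPM in siControl and at 570, 184 and 389 in siNELFA. The groups overlapped, since siControl replicate 1 exceeded siNELFA replicate 2, while each siNELFA library was above its same-numbered control. The log2 fold change was 1.52 ± 0.49 without and 1.49 ± 0.12 with the block (edgeR adjusted p = 4.88e-05 with the block).

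CXCL1 was at 73.2, 36.2 and 71.6 CPM in siControl and at 123, 84.7 and 168 in siNELFA, again with no overlap. It rose by 1.07 ± 0.12 on the log2 scale with the block (edgeR adjusted p = 0.000684), and the value without it was 1.05 ± 0.35. The close relatives CXCL2 and CXCL3 gave a different reading. CXCL2 was at 42.1, 17.0 and 17.3 CPM in siControl and at 41.3, 20.0 and 27.2 in siNELFA, a log2 difference of 0.29 ± 0.16 with the block (edgeR adjusted p = 0.347). CXCL3 was at 5.63, 7.10 and 11.8 CPM against 4.94, 8.77 and 10.8, a difference of 0.01 ± 0.21. No stretch of 150 bases, the read length, is shared between the canonical transcripts of CXCL1, CXCL2 and CXCL3, and 5.33% of the 50-base stretches of CXCL1 also occur in CXCL2, and how reads that fit both were counted is not given in the sources used here.

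Of the IL-1 agonists, IL1A was at 85.8, 45.0 and 74.6 CPM in siControl and at 115, 87.5 and 138 in siNELFA, with no overlap between the groups. Its log2 fold change was 0.73 ± 0.29 without and 0.76 ± 0.12 with the block (edgeR adjusted p = 0.00482 with the block). IL1B was at 78.1, 58.5 and 99.8 CPM against 78.4, 114 and 154, so that the replicate 1 libraries were level and the others were not. IL1B did not pass the test, with a difference of 0.54 ± 0.15 (edgeR adjusted p = 0.0594 with the block).

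The gp130 cytokines went in different directions. IL6 was at 279, 73.4 and 99.1 CPM in siControl and at 458, 195 and 292 in siNELFA, where replicate 1 was the highest library of both groups. Its log2 fold change was 1.07 ± 0.54 without the block and 1.23 ± 0.14 with it (edgeR adjusted p = 0.000659 with the block). IL6 was also the gene that passed without pairing once replicate 1 was left out of both groups, where 1 of the 10 did (0.0996% of all genes). IL11 was at 8.66, 27.8 and 42.4 CPM in siControl and at 4.71, 9.86 and 18.5 in siNELFA, lower in each pair although the groups overlapped. It fell by 1.22 ± 0.17 on the log2 scale with the block (edgeR adjusted p = 0.00244). LIF was at 46.2, 75.7 and 112 CPM against 74.1, 94.6 and 117, a difference of 0.35 ± 0.12 (edgeR adjusted p = 0.131 with the block). The exons of IL6 share 428 bases with the antisense gene IL6-AS1, those of LIF 86 with LIF-AS1, and how strand was counted is not given in the sources used here.

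Counted over same-numbered libraries, 7 of the 10 genes were higher in siNELFA in all 3 pairs, against 22.1% of all genes, and IL11 was lower in all 3, against 22.1%. Only CXCL2 and CXCL3 had a mixed sign. Leaving out pair 1, whose libraries stood apart, gave 8 genes past the adjusted threshold with the block (15.7% of all genes), the added ones being CXCL2 and IL1B. Leaving out pair 2 or pair 3 gave 6 each (3.56% and 3.65% of all genes), and CCL20, CXCL1, CXCL8, IL6, IL1A and IL11 were among those called in each of the 3 fits. With only 2 pairs left, these fits rest on the spread shared across genes. Of the 9 leukocyte and endothelial markers, 4 were tested and 3 lay below 0 with the block (median -0.37), among them CSF1R (-0.67 ± 0.21), while CD14 rose (1.21 ± 0.23, edgeR adjusted p = 0.011). The part of these markers in the result was not tested.

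**Figure D2:**
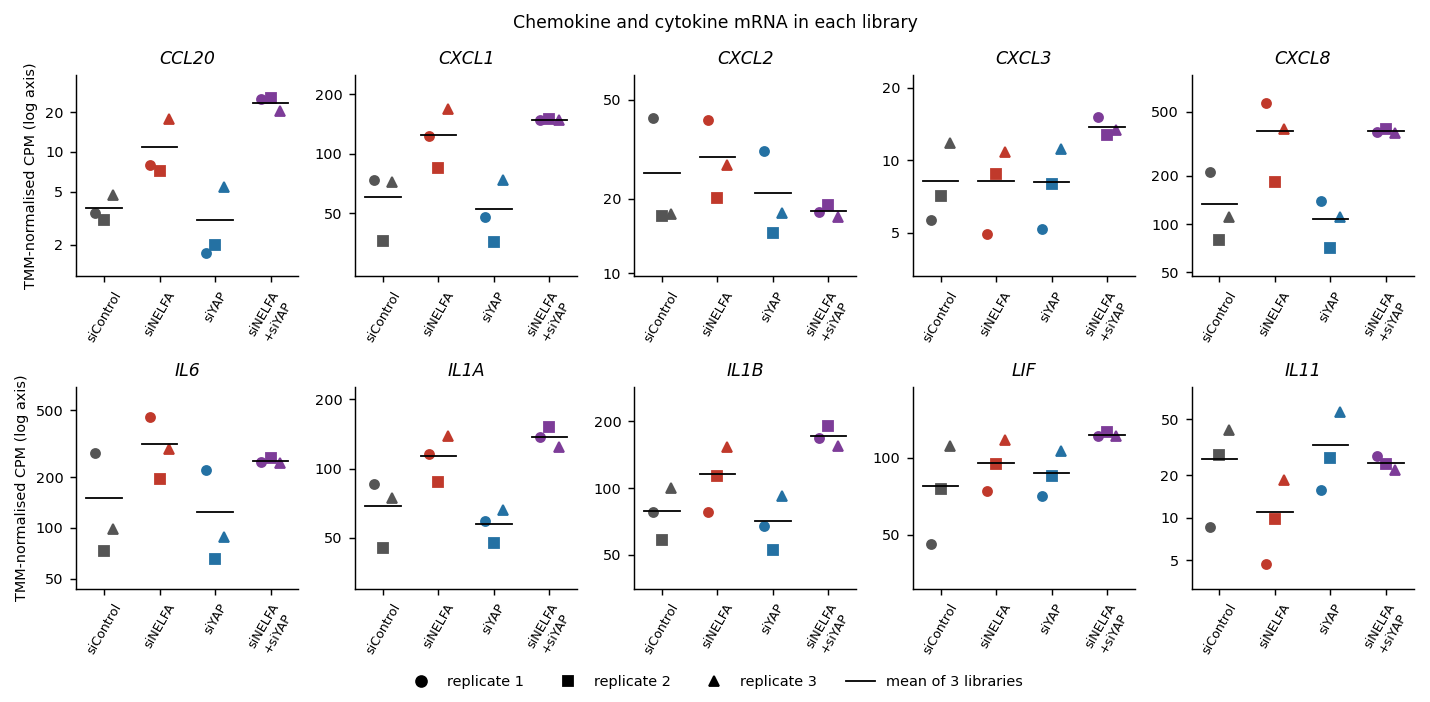
TMM-scaled CPM of each of the 10 genes in the 12 libraries, on log axes, with 1 panel per gene, marker shapes for the replicate number and a bar at the mean of 3 libraries. CCL20 lies at 3.08 to 4.76 CPM in siControl and at 7.21 to 17.7 in siNELFA, while IL11 is lower in siNELFA than in siControl in each replicate.

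Loss of YAP alone was the second single knockdown. None of the 10 genes passed an adjusted p of 0.05 in edgeR's test (0.00578% of all genes), none had an unadjusted p under 0.05 (1.30%), and DESeq2 likewise called none before or after adjustment (1.58% and 0.0116% of all genes). With the replicate block, 0 of 10 passed (0.0173% of all genes) and 0 had an unadjusted p under 0.05 (9.11%). The log2 differences ran from -0.33 for CXCL8 to 0.33 for IL11, with standard errors of 0.27 to 0.62, and from -0.40 for CCL20 to 0.37 for IL11 with the block, with standard errors of 0.11 to 0.33.

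CCL20 was at 1.73, 2.00 and 5.43 CPM in siYAP (18 to 88 counts), below siControl in replicates 1 and 2 and above it in replicate 3. CXCL8 was at 139, 70.7 and 111 CPM, and IL6 at 220, 65.5 and 87.9. IL6 and IL1B were the members lower in siYAP in all 3 pairs, against 18.4% of all genes. CXCL1 was at 47.7, 35.9 and 73.2 CPM, CXCL2 at 31.1, 14.6 and 17.5, and CXCL3 at 5.19, 7.99 and 11.2. IL1A was at 59.2, 47.4 and 66.0 CPM, IL1B at 67.3, 52.9 and 92.1, LIF at 71.2, 84.6 and 107, and IL11 at 15.9, 26.8 and 56.9. Every member's siYAP range overlapped its siControl range, where 7.75% of all genes had no overlap. A p that misses the threshold at these standard errors does not show that siYAP left the genes at the control level.

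The single knockdowns were then set against each other, which asks where loss of NELFA and loss of YAP left different levels. The siNELFA libraries here are the ones already set against siControl, so the values are not a second measurement. Without the block, 0 of 10 genes passed the adjusted threshold in edgeR (0.0116% of all genes) and 7 had an unadjusted p under 0.05 (5.63%), 6 of them higher in siNELFA. DESeq2 called 2 after adjustment, CXCL8 and IL1A (0.446% of all genes). With the block, 8 passed (15.8%), of which 7 were higher in siNELFA (8.33% of all genes were higher) and IL11 was lower (7.44%).

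CXCL8 differed by 1.75 ± 0.10 on the log2 scale with the block (edgeR adjusted p = 8.14e-12) and 1.84 ± 0.44 without it, and its siNELFA and siYAP libraries did not overlap. CCL20 differed by 1.88 ± 0.23 with the block (edgeR adjusted p = 3.05e-06), CXCL1 by 1.27 ± 0.09 (7.07e-10) and IL6 by 1.46 ± 0.10 (3.54e-10). The differences of IL1A, IL1B and CXCL2 were 0.98 ± 0.09, 0.70 ± 0.12 and 0.51 ± 0.13. IL11 was lower in siNELFA by a log2 difference of -1.58 ± 0.14 (edgeR adjusted p = 2.7e-08). CXCL3 (0.02 ± 0.20) and LIF (0.13 ± 0.09) did not pass. CCL20, CXCL1, CXCL8 and IL1A did not overlap between the groups, against 6.17% of all genes higher without overlap. Leaving out pair 1 or pair 2 gave 8 calls with the block (14.8% and 14.9% of all genes) and leaving out pair 3 gave 7 (5.91%), without CXCL2.

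**Figure D3:**
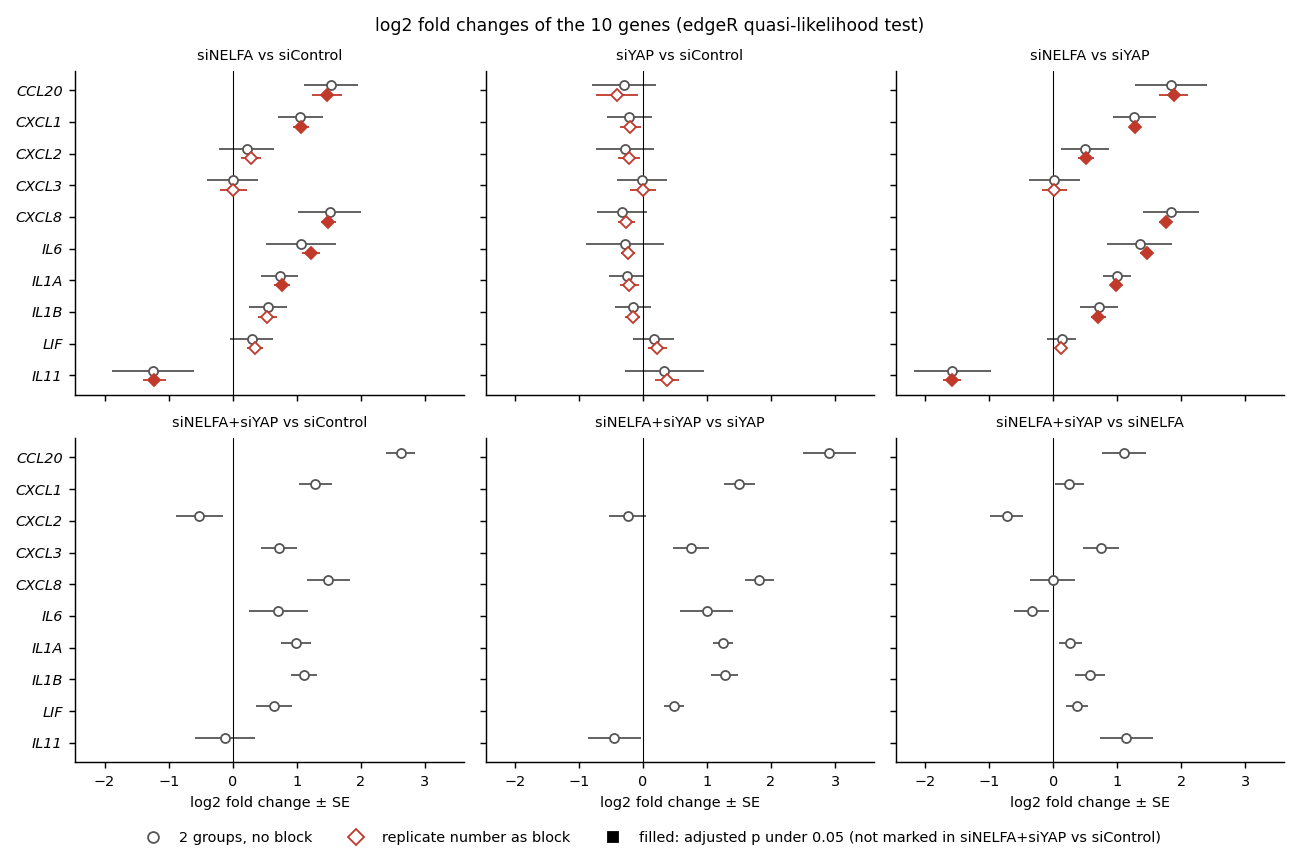
Log2 fold change ± SE of the 10 genes in the 6 comparisons, as grey circles without and red diamonds with the replicate block in the 3 comparisons whose libraries were paired by number. Filled markers passed an adjusted p of 0.05 in edgeR, except in the siNELFA+siYAP against siControl panel, where no test is marked. CCL20, CXCL1, CXCL8, IL6 and IL1A are filled above 0 and IL11 below 0 with the block in siNELFA against siControl, and no marker is filled in siYAP against siControl.

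With both factors lowered, the 3 libraries of siNELFA+siYAP lay close together. The chemokine CCL20 was at 25.0, 25.5 and 20.2 CPM (302 to 376 counts) against 3.08 to 4.76 in siControl, a log2 fold change of 2.62 ± 0.22, and it is the value by which this gene was first named. CXCL8 was at 374, 390 and 371 CPM (1.49 ± 0.34), and CXCL1 at 148, 150 and 148 (1.29 ± 0.26).

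IL1B was at 169, 191 and 155 CPM (log2 fold change 1.11 ± 0.20) and IL1A at 137, 151 and 124 (0.99 ± 0.24). CXCL3, which hardly differed between siNELFA and siControl, was at 15.1, 12.7 and 13.3 CPM (0.73 ± 0.28), above every siControl library. LIF was at 122, 126 and 122 CPM (0.65 ± 0.28), also above every control. IL6 was at 245, 260 and 244 CPM (0.71 ± 0.46), inside the siControl range of 73.4 to 279, whose top is the replicate 1 library. CXCL2 was at 17.7, 18.8 and 16.9 CPM (-0.52 ± 0.37) and IL11 at 27.6, 24.0 and 21.9 (-0.12 ± 0.47), and both overlapped siControl.

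The counts that follow include CCL20, which was selected in this comparison, and nothing is read from them. In all, 7 of the 10 genes lay above siControl without overlap, where 15.9% of all genes did, and 1 passed the adjusted threshold in edgeR, where 0.428% of all genes did. The median log2 fold change was 0.86, against -0.03 over all genes. Which members were called depended on single libraries: 8 were called without siControl replicate 1 (24.4% of all genes), 2 without siControl replicate 3 (0.709%), and 0 without siControl replicate 2 or any of the siNELFA+siYAP libraries (0.0113% of all genes without the control, and 0%, 0.0107% and 0.0113% without siNELFA+siYAP replicates 1, 2 and 3). DESeq2 called 5 (7.69%). The siControl replicate 1 library had the highest CXCL1, CXCL2, CXCL8, IL6 and IL1A and the lowest LIF, CXCL3 and IL11 of its group.

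Against siYAP, the siNELFA+siYAP cells differ by the added loss of NELFA and by any difference between experiments. The siNELFA+siYAP libraries are those by which CCL20 was selected, so its place in the counts here and against siNELFA is not independent of that choice. No member passed the adjusted threshold in edgeR (0.0350% of all genes did), while 8 were higher at an unadjusted p under 0.05 (6.66% of all genes), all except CXCL2 and IL11. These 8 also lay above siYAP without overlap (13.8% of all genes), and DESeq2 called 5 after adjustment (4.49%): CCL20, CXCL1, CXCL8, IL1A and IL1B. IL1A was at 124 to 151 CPM against 47.4 to 66.0, a log2 difference of 1.25 ± 0.16 (edgeR adjusted p = 0.0717). CXCL8 differed by 1.82 ± 0.23 (edgeR adjusted p = 0.074), CXCL1 by 1.50 ± 0.24, IL1B by 1.27 ± 0.21 and CCL20 by 2.91 ± 0.42.

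The remaining members differed less. IL6 differed by 1.00 ± 0.41, CXCL3 by 0.75 ± 0.28, LIF by 0.49 ± 0.16, CXCL2 by -0.24 ± 0.28 and IL11 by -0.45 ± 0.41. The call depended on the siYAP replicate 1 library, without which edgeR called 8 (16.5% of all genes), and on replicate 3, without which it called 2 (0.135%). Leaving out replicate 1 of both groups gave 6 (7.70%).

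Against siNELFA, the siNELFA+siYAP cells differ by the added loss of YAP and by any difference between experiments. No member passed the adjusted threshold in edgeR (0.00573% of all genes) or in DESeq2 (0.258%), and 5 had an unadjusted p under 0.05 in each tool (6.62% and 7.24% of all genes). CCL20 was at 20.2 to 25.5 CPM against 7.21 to 17.7, a log2 difference of 1.10 ± 0.34. IL11 was at 21.9 to 27.6 CPM against 4.71 to 18.5, a difference of 1.14 ± 0.42. The siNELFA+siYAP values lay within the siControl range of 8.66 to 42.4, as did siNELFA replicates 2 and 3. CXCL3 and IL1B differed by 0.74 ± 0.28 and 0.57 ± 0.23, and CXCL2 by -0.73 ± 0.26, the member whose libraries lay below siNELFA without overlap (7.40% of all genes). IL11, CCL20, IL1B, LIF and CXCL3 lay above it (7.68% of all genes). The other members with high levels differed by less than 2 standard errors, with CXCL8 at -0.01 ± 0.35, CXCL1 at 0.25 ± 0.22, IL1A at 0.27 ± 0.18 and IL6 at -0.34 ± 0.27.

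Whether the effect of siNELFA differed with and without siYAP was fitted as an interaction over the 12 libraries. This value also carries any difference between experiments. No gene of 18525 passed the adjusted threshold in edgeR, and 326 (1.76%) had an unadjusted p under 0.05. Among the members the difference of log2 effects ran from -0.46 ± 0.56 for CXCL2 to 1.39 ± 0.63 for CCL20, with IL11 at 0.82 ± 0.84, CXCL3 at 0.76 ± 0.51 and IL1B at 0.73 ± 0.39. For CCL20 this value uses the libraries by which the gene was named and is a description.

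Within the 3 groups whose libraries were paired by number, the members also differed by replicate. All 10 were higher in replicate 3 than in replicate 2 in siControl, siNELFA and siYAP alike, where 21.6% of all genes were. Replicate 1 was the highest of the 3 libraries in each of these groups for CXCL2, IL6 and CXCL8 (24.5% of all genes) and the lowest for LIF, CXCL3 and IL11 (25.9%). Summed over the 10 genes, siControl held 832, 423 and 643 CPM in replicates 1 to 3, and its replicate 1 sum exceeded the lowest siNELFA sum, 805. The siYAP sums ran from 408 to 659, the siNELFA sums up to 1477, and the siNELFA+siYAP sums from 1236 to 1349 CPM.

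CCL20 had the pattern most like CXCL1 across the 12 libraries, by the root mean square difference of centred log2 CPM over 12970 genes averaging at least 50 counts. That difference was 0.587 for CXCL1, 0.606 for ADAM19, a membrane metalloprotease, 0.606 for CSF2, which encodes the growth factor GM-CSF, 0.629 for IL7R, the IL-7 receptor, and 0.634 for SLC22A4, an organic cation transporter. ADAM19 stood at a mean of 93.2 CPM in siControl, 176 after siNELFA, 110 after siYAP and 276 after both. IL1B ranked 13th, IL1A 20th and CXCL8 23rd among these genes, while CXCL2 and IL11 ranked 10199 and 11815. The 12 libraries include those by which CCL20 was selected, so this order is only a description.

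**Figure D4:**
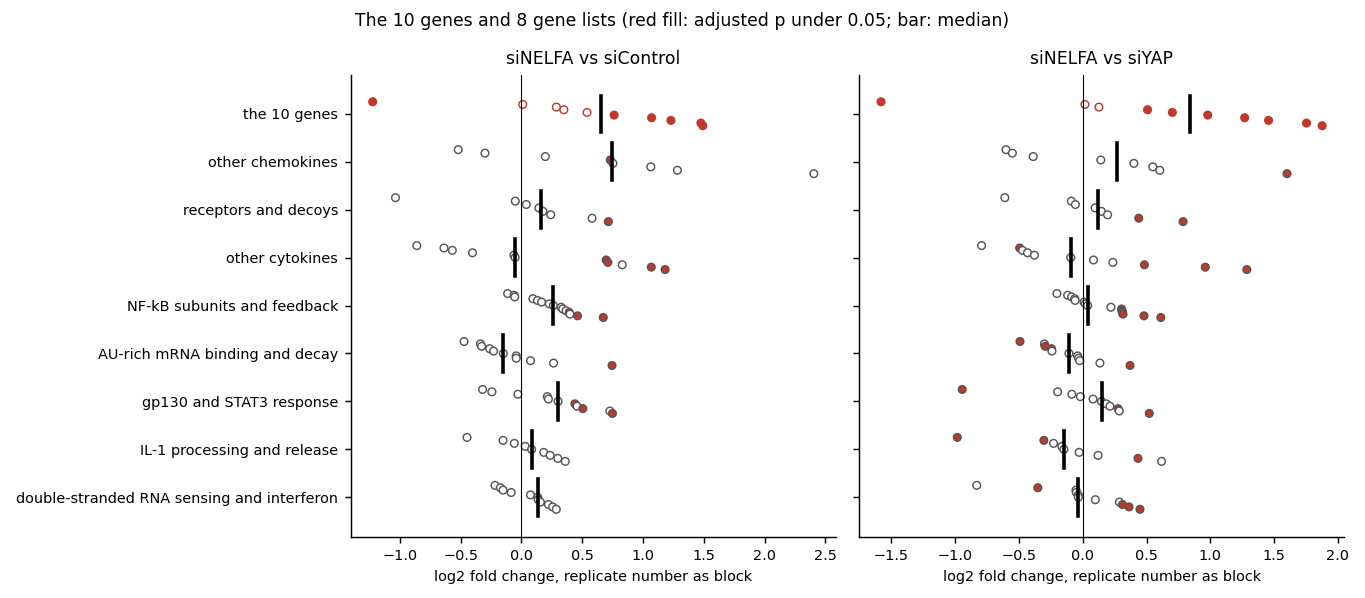
Log2 fold change with the replicate block of the 10 genes and of 8 related gene lists in siNELFA against siControl and against siYAP, 1 point per gene, red where the adjusted p was under 0.05 and with a bar at the list's median. Against siControl, 13 of the 84 tested list genes are red, all above 0, and against siYAP 19 are red above and 8 below 0.

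Genes that work with these cytokines were read from 8 lists of 107 genes in all, of which 84 were tested. In siNELFA against siControl, none passed in edgeR without the block and 6 were higher and 1 lower at an unadjusted p under 0.05. With the block 13 rose and none fell, against 2.76% and 2.45% of all genes. In siNELFA against siYAP with the block, 19 were higher and 8 lower, against 8.33% and 7.44% of all genes. In siYAP against siControl none of the 83 tested passed in either fit. At an unadjusted p under 0.05 in edgeR, none was called without the block. With the block 13 were higher and 0 lower, where 9.11% of all genes were called in either direction. In siNELFA+siYAP, 1 of 85 passed against siControl (0.428% of all genes), ZC3H12A, an RNase that degrades IL6 message (1.06 ± 0.15, edgeR adjusted p = 0.0431), and none passed against either single knockdown.

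Of 16 other cytokines, 11 were tested and 4 rose in siNELFA against siControl with the block (2.76% of all genes rose). They were the colony-stimulating factors CSF2 (1.18 ± 0.17), CSF3 (1.07 ± 0.12) and CSF1 (0.71 ± 0.09), which direct the growth of granulocytes and macrophages, and IL32 (0.70 ± 0.14). The list's median was -0.05, with 6 of the 11 below 0. In siYAP against siControl with the block, none of these 4 passed. The values there were 0.47 ± 0.12 (CSF1), 0.21 ± 0.15 (IL32), 0.12 ± 0.16 (CSF3) and -0.11 ± 0.16 (CSF2). Of 19 other chemokines, 8 were tested, with a median of 0.74 in siNELFA against siControl with the block. CX3CL1, the ligand of CX3CR1, rose there (0.73 ± 0.19, edgeR adjusted p = 0.0486). Its value in siYAP against siControl with the block was larger but did not pass (1.12 ± 0.18, edgeR adjusted p = 0.221). Between siNELFA and siYAP with the block it differed by -0.39 ± 0.14 (edgeR adjusted p = 0.0686). CXCL5, a neutrophil chemokine of the same family, passed only against siYAP (1.60 ± 0.51) and had 0 to 136 counts per library.

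The receptors that answer these ligands were unevenly present. CCR6 and CXCR2 had 0 counts in all 12 libraries and CXCR1 at most 2, so that counts for the receptors of CCL20 and the CXCL chemokines were at or near 0. The signalling chain IL6ST (gp130) stood at a mean of 644 CPM in siControl, IL1R1 at 87.1, LIFR at 112, IL6R at 3.87 and IL11RA at 4.81. Of 13 receptors and decoys, 8 were tested, and IL1RAP, the accessory chain of the IL-1 receptor, rose in siNELFA against siControl with the block (0.72 ± 0.13, edgeR adjusted p = 0.00792). Against siYAP, IL6ST (0.44 ± 0.08) and IL1RAP (0.79 ± 0.10) were higher.

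All 15 genes of the NF-kB list were tested. With the block, 12 lay above 0 in siNELFA against siControl, where 50.7% of all genes did. Of the 15, 3 rose, against 2.76% of all genes. The 3 that rose were TNFAIP2 (0.67 ± 0.11), a cytokine-induced gene, NFKB2 (0.46 ± 0.11), the p100 subunit precursor, and NFKBIA (0.39 ± 0.10), the inhibitor that NF-kB itself induces. The median was 0.26. In siYAP against siControl with the block, 11 of the 15 also lay above 0, where 50.2% of all genes did. None of them passed there, and their median was 0.08. Against siYAP 6 of the 15 were higher (8.33% of all genes were), BIRC3 (0.61 ± 0.08) the most. Of the 11 AU-rich mRNA binding and decay genes, ZC3H12A rose in siNELFA against siControl with the block (0.75 ± 0.12). In the same fit 8 of the 11 lay below 0, with a median of -0.15, where 50.7% of all genes lay above 0. Against siYAP, ZC3H12A was higher (0.37 ± 0.09), and ZFP36L1 and ZFP36L2, which promote decay of AU-rich messages, were lower (-0.24 ± 0.08 and -0.49 ± 0.11), as was N4BP1 (-0.29 ± 0.10).

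Of the 11 gp130 and STAT3 response genes, 3 rose in siNELFA against siControl with the block (2.76% of all genes rose). They were the kinases PIM2 (0.75 ± 0.15) and PIM1 (0.44 ± 0.11) and the oncostatin M receptor OSMR (0.50 ± 0.09), while SOCS1, a feedback inhibitor, had the lowest value of the list (-0.32). The median was 0.30, with 8 of the 11 above 0. In siYAP against siControl with the block, 9 of the 11 lay above 0 (50.2% of all genes did), with a median of 0.22, and none passed. In siNELFA against siControl with the block, none of the 9 IL-1 processing and release genes passed (median 0.08). None of the 11 tested double-stranded RNA sensing and interferon genes passed there either (median 0.13). Against siYAP, CASP4 was higher (0.43 ± 0.10) and PYCARD and CAPN1 lower (-0.98 ± 0.32 and -0.30 ± 0.09) in the IL-1 list. IFIT1, IFIT2 and IFIT3 were higher by 0.31 to 0.45 and ISG15 was lower (-0.35 ± 0.10) in the interferon list. Of the 8 cell line markers, 6 were tested against siYAP, and CDH1 (1.69 ± 0.32), CD44 (0.41 ± 0.08) and VIM (0.23 ± 0.08) were higher in siNELFA, while EPCAM had a value of -0.26 ± 0.18. The CDH1 value rests on replicate 1, with 599 counts in siNELFA and 169 in siYAP. Replicates 2 and 3 of these groups held 0 to 14 counts, and the CDH1 value without the block was 1.58 ± 2.30. CD14 was higher (1.10 ± 0.20) and CSF1R lower (-1.09 ± 0.20) among the 3 leukocyte and endothelial markers tested (edgeR adjusted p = 0.00045 and 0.00046). The part of these markers in the differences was not tested.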

How the data were processed

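RNA-seq libraries from MDA-MB-231 cells, 3 for each of 4 siRNA groups, were analysed at the gene level. The authors trimmed reads with cutadapt and used STAR for alignment to GRCh38 and featureCounts for counting on Ensembl release 87 genes; strand setting and versions are not given in the sources used here. Ribosomal depletion is given in the library protocol and mRNA selection in the series text. The deposited counts per gene were tested as they stand, and the deposited TPM values were used for levels; 94 TPM identifiers on several lines were summed. A deposited FPKM table was not used.

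Counts of each pair of groups (6 libraries) were fitted with edgeR 4.0.16 (R 4.3.3) by the quasi-likelihood test after TMM scaling and filterByExpr (at least 10 counts, 15 in total), with Benjamini-Hochberg adjustment over all tested genes and a threshold of 0.05. The scripts were tested on simulated counts with equal spread in both groups and no replicate effect, unlike these libraries. DESeq2 1.42.0, other scalings and filters, all 12 libraries, limma 3.58.1 on log2(TPM + 1) or log2(TPM + 0.1), left-out libraries and a replicate block were alternatives; the block with 1 pair left out was chosen after seeing the data. Numbers paired the libraries of siControl, siNELFA and siYAP: deviations from group means correlated at 0.65 to 0.889 over 12971 genes in every same-numbered pair, and at -0.0514 to 0.0276 with siNELFA+siYAP. P-values measure only the spread between these libraries.

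All 10 members were named, and list genes where they passed the threshold or were extremes of their list; members and lists were chosen with earlier results of these data known. Promoters came from RefSeq, where 9 of the 10 members had an entry, and positions from GENCODE release 44.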

Additional observations from a re-analysis of the deposited data

How the results depend on the processing

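Counts of members past the adjusted threshold moved with the processing, and the causes were not tested. In siNELFA against siControl the count was 6 with the replicate block (8, 6 and 6 with pair 1, 2 or 3 also left out), 1 without replicate 1 in either group, and 0 with any single library left out. In siNELFA against siYAP it was 8 with the replicate block (8, 8 and 7), 2 with DESeq2, 1 without replicate 1, and 0 with any single library left out. In siNELFA+siYAP against siControl it was 5 with DESeq2, 5 with no filter, 0 with the replicate block, 7 without replicate 1, and 0 to 8 with single libraries left out. Against siYAP it was 5 with DESeq2, 5 with no filter, 6 without replicate 1, and 0 to 8; against siNELFA and in siYAP against siControl it stayed at 0 under every alternative run.

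Signs turned mainly for members near 0. CXCL3 in siNELFA against siControl was 0.011 with no filter, 0.011 with the block, 0.059 without replicate 1, and 0.084 and 0.087 with the block and pair 1 or 3 left out; against siYAP it was -0.047 with the block and pair 2 left out, and -0.19 and -0.22 on log2(TPM + 1) and log2(TPM + 0.1). In siYAP against siControl, CXCL1 was 0.023 without replicate 1 and 0.015 with the block and pair 1 left out, and CXCL3 was 0.023, 0.035 and, with the block and pair 3 left out, 0.029. In siNELFA+siYAP, CXCL2 without replicate 1 was 0.057 against siControl and 0.15 against siYAP, IL11 with the block was 0.093 against siControl, and against siNELFA CXCL8 was 0.13 with the block, 0.41 without replicate 1 and 0.26 on both TPM scales, and IL6 was 0.048 without replicate 1.

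With single libraries left out, the ranges that crossed 0 were, in siNELFA against siControl, -0.10 to 0.79 (CXCL2) and -0.26 to 0.36 (CXCL3); in siYAP against siControl, -0.66 to 0.29 (CXCL2), -0.32 to 0.34 (CXCL3), -0.60 to 0.17 (CXCL8), -0.98 to 0.53 (IL6), -0.40 to 0.042 (IL1B), -0.10 to 0.51 (LIF) and -0.31 to 0.85 (IL11); in siNELFA+siYAP, against siControl -0.74 to 0.051 (CXCL2) and -0.53 to 0.40 (IL11), against siNELFA -0.35 to 0.40 (CXCL8) and -0.59 to 0.030 (IL6), against siYAP -0.45 to 0.15 (CXCL2) and -0.78 to 0.19 (IL11); and in siNELFA against siYAP, -0.24 to 0.32 (CXCL3) and -0.051 to 0.30 (LIF). Of the single-gene values under alternatives, 766 kept direction and call, 109 passed the threshold in addition, 5 no longer did and 50 turned. On the log2(TPM + 1) scale the median of all genes was -0.168 in siNELFA against siControl, -0.107 in siNELFA+siYAP against siControl and -0.115 in siNELFA against siYAP. The members with the fewest counts were CCL20 and CXCL3, at 18 to 376 and 52 to 248 per library.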
